A study of Homo sapiens with 6 samples.

Results

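The expressed long noncoding RNAs of the cells were taken as the 300 most abundant genes that the deposited table types as lncRNA and not also as protein_coding, out of 60612 genes in all. Names starting with SNHG and the genes GAS5 and H19 were left out by the rule, which removed 19 genes at or above 1 FPKM (fragments per kilobase of transcript scaled to the library's depth, a level per length). Of 16827 remaining lncRNA genes, 6894 were detected in at least 1 library and 621 reached a mean of 1 FPKM over the 6 libraries, of which the highest 300 were kept. The members were chosen by their mean FPKM over both groups, so the levels below are a description. The direction of the difference between the groups did not enter the choice. A gene near the limit may still be inside only through the group where it is high. The last gene inside was DLGAP1-AS2 at 1.850 FPKM, and the first outside was GSEC at 1.846 FPKM, followed closely by NEAT1 at 1.84 FPKM. TUG1 and TINCR also stayed outside, because the table gives each a protein_coding transcript type.

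Poly(A) RNA was sequenced from cells whose label is Hep3B, an established line of human hepatocellular carcinoma. The siEIF4G2 group (3 libraries) received a small interfering RNA against EIF4G2 at 50 nM, and the siNC group (3 libraries) received a control small interfering RNA at the same dose. No genetic change or other agent is given for either group, and nothing says whether the libraries of a group came from separate cultures, so every p-value here reflects the spread among these libraries alone, and that spread may be technical. In libraries made from bulk RNA, fewer cells with a transcript and less of it per cell cannot be told apart.

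EIF4G2 encodes a relative of the scaffold protein eIF4G that lacks the binding site for the cap-binding protein eIF4E and takes part in translation of selected messenger RNAs. Long noncoding RNAs are transcripts without a long open reading frame. Many are spliced and polyadenylated like messenger RNA, some stay at the nuclear site where they are made, others build nuclear bodies, bind proteins or microRNAs in the cytoplasm, or are the precursors from which microRNAs are cut. They are, as a class, less abundant and more restricted to particular cell types than messenger RNAs.

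As a check of the labels, EIF4G2 itself (ENSG00000110321, chr11:10797050-10808929, minus strand, GRCh38) read 179, 181 and 201 CPM (counts scaled to equal library totals) in siEIF4G2 replicates 1 to 3 and 1109.6, 919 and 1004 CPM in siNC replicates 1 to 3. Its log2 fold change was -2.43 (SE 0.09; edgeR adjusted p = 0.000207), and an exact permutation test over the libraries gave p = 0.1 (two-sided), which is as low as 3 against 3 can go. The defining genes of the labelled cell type were mostly absent: 11 of 12 hepatocyte markers had a mean under 0.1 FPKM, 7 of them listed at 0 in every library, and GPC3 was also listed at 0. Keratins KRT8 and KRT18 stood at 183 and 185 FPKM, while EPCAM and CDH1 were near 0. Summed markers of other cell types moved between the groups: the 7 fibroblast markers gave 99.4 to 101 FPKM in siEIF4G2 and 77.0 to 85.3 FPKM in siNC, the 6 blood markers 8.04 to 10.2 and 12.4 to 14.4 FPKM with PTPRC and CD3E listed at 0, the 4 neural markers 3.26 to 3.91 and 5.81 to 6.63 FPKM, and the 4 endothelial markers 0.439 to 0.550 and 1.34 to 1.42 FPKM. Most of each sum came from 1 or 2 genes: COL3A1 and LUM (38.8 and 38.7 FPKM) for fibroblasts, CD68 (10.6 FPKM) for blood, SNAP25 (4.69 FPKM) for neural cells and CDH5 (0.857 FPKM) for endothelium. The fibroblast markers did not move together, since COL3A1, LUM and DCN rose by 0.35, 0.38 and 0.73 on the log2 scale (edgeR adjusted p = 0.00334, 0.0417 and 0.0324), COL1A1 and PDGFRB fell by 0.43 and 1.19 (edgeR adjusted p = 0.0083 and 0.00302), and 2 had means under 0.1 FPKM. All 4 adipocyte markers had means under 0.1 FPKM. The part of these shifts in the results below was not tested. Libraries held 63351653 to 72863628 counts in total, and the 300 genes took 0.591% to 0.596% of them in siEIF4G2 and 0.630% to 0.687% in siNC.

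The working description of the genes as intergenic did not hold for most of them. In GENCODE release 29, a catalogue that still split long noncoding RNAs by position, 102 of the 300 (34%) were typed lincRNA, the intergenic class, 129 (43%) antisense, 26 processed_transcript, 13 sense_intronic and 7 sense_overlapping, 3 protein_coding, and 15 were not in that release. Of the 300, 165 overlapped another gene at the level required for testing (0.5 FPKM in at least 3 libraries), including genes left untested because they share a symbol. The overlap was on the opposite strand for 129 of them and on the same strand for 56. Of the 300, 80 had the start of a protein-coding gene within 1 kb on the other strand. They are therefore called expressed long noncoding RNAs here. Whether counting used strand is not given in the sources used here, so for these 165 the reads of the noncoding RNA and of its partner may be mixed. The genes lay on 23 chromosomes, their median level was 3.09 FPKM, 27 exceeded 10 FPKM and 4 exceeded 100 FPKM.

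The question put to these genes was which of them change when EIF4G2 is silenced. A total of 38 rose and 51 fell in siEIF4G2, and 196 of the 285 that could be tested did not pass an edgeR adjusted p of 0.05. The share that passed, 31.2%, stands beside 33.4% of all 13748 genes tested (15.9% higher and 17.6% lower), so long noncoding RNAs were called about as often as genes at large. Among protein-coding genes the share was 36.7%, or 38.5% for the 9050 of them at or above the level of the lowest member, and among the 785 other tested long noncoding RNAs, mostly lower in level, it was 20.6%. The median log2 fold change was 0.05 over the members and 0.01 over all genes. Of the 285 members tested, 4 both passed and rose at least 2-fold, and 14 both passed and fell at least 2-fold. Over all 13748 genes tested, 132 (0.96%) and 356 (2.59%) did so. Of the 285, 144 had groups that did not overlap, or 50.5%, beside 50.6% of all genes. Without siEIF4G2 replicate 2, or without siNC replicate 1, 25 members were called higher, and 48 of the 89 calls (18 higher, 30 lower) held in all 6 fits that left out 1 library.

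Of the 15 members without a test, 14 share a clone name with a more abundant gene, since the table gives clone names without their version number and 1 gene was kept for each symbol. With each gene identifier on its own, none of these 14 passed, and 38 rises and 51 falls were again called among 299. The last, AC005786, lay under the filter of 0.5 FPKM in at least 3 libraries: it read 9.66 and 9.51 CPM in siNC replicates 1 and 2 and was listed at 0 in the other 4 libraries. It overlaps MFSD12 on the opposite strand.

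By annotated type the calls were spread over all larger classes. Of 96 tested genes of the lincRNA type 15 rose and 15 fell, and of 126 of the antisense type 14 rose and 22 fell. Genes named as antisense RNAs (53 tested) gave 6 rises and 15 falls, and genes with a LINC number (19 tested) gave 4 and 5. Genes deposited under a clone name, the largest class with 170 tested, gave 22 and 22. Some of them now have an antisense, LINC or host name. Ranked by level, the highest 95 gave 10 rises and 24 falls, the middle 95 gave 18 and 10, and the lowest 95 gave 10 and 17. The called shares were 31.25% for the lincRNA type and 28.6% for the antisense type, beside 33.4% of all genes. By name they were 39.6% for antisense names, 47.4% for LINC numbers and 25.9% for clone names. For the highest, middle and lowest 95 they were 35.8%, 29.5% and 28.4%. Falls outnumbered rises among the highest 95 and rises outnumbered falls among the middle 95. The differences between these classes were not tested.

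**Figure D1:**
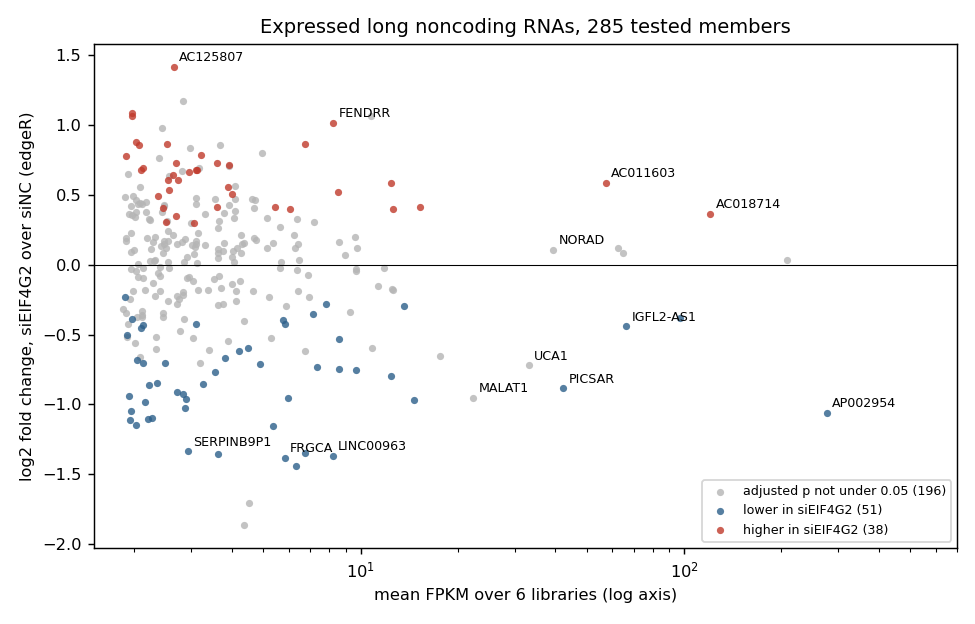
Mean level over the 6 libraries (FPKM, log axis) against the log2 fold change of siEIF4G2 over siNC from edgeR for the 285 tested long noncoding RNAs, each a point. Red marks the 38 that rose, blue the 51 that fell and grey the 196 that did not pass. The most abundant gene, AP002954, lies far right with a fall, and most points lie under 10 FPKM.

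The most abundant long noncoding RNA was AP002954 (ENSG00000287238, chr11:118721104-118729412, minus strand), a clone-named gene that is not in release 29, at 275.8 FPKM. It read 252, 297 and 284 CPM in siEIF4G2 replicates 1 to 3 and 565, 597 and 573 CPM in siNC replicates 1 to 3. All siEIF4G2 values lay under all siNC values, and the gene was 2.08-fold lower (log2 fold change -1.06, SE 0.07; edgeR adjusted p = 0.000405). It overlaps no tested gene, and the nearest protein-coding gene, DDX6, an RNA helicase of processing bodies, lies 18351 bp away and had a log2 fold change of -0.17 (edgeR adjusted p = 0.0312).

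Of the next most abundant genes, 4 are near-identical copies of 923 bp on chromosome 21, FP236383 and FP671120 (a pair under each symbol), with mean levels of 207.6, 128, 64.8 and 33.2 FPKM. Of these copies, 3 lie against the 45S ribosomal RNA units RNA45SN1, RNA45SN2 and RNA45SN3. Their reads may be shared among the copies, and in each of the 4 siEIF4G2 replicate 2 was the highest library. The groups overlapped in both tested copies, whose log2 fold changes were 0.04 and 0.09 (SE 0.17 and 0.16; edgeR adjusted p = 0.888 and 0.715).

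IGFL2-AS1 (ENSG00000268621, chr19:46189029-46203083, minus strand) stood at 66.3 FPKM. It read 226, 227 and 226 CPM in siEIF4G2 and 298, 305 and 317 CPM in siNC, so the groups lay clearly apart although the difference was small (log2 fold change -0.44, SE 0.04; edgeR adjusted p = 0.000878). AC007785 (chr19:46101122-46196218, plus strand), a second member that overlaps it on the opposite strand, read 1.88, 1.3 and 1.41 CPM in siEIF4G2 and 3.46, 4.36 and 3.85 CPM in siNC and was 2.54-fold lower (edgeR adjusted p = 0.00377). The region holds the IGFL genes, which encode small secreted proteins resembling insulin-like growth factors. IGFL1 read 0.351, 0.138 and 0.188 CPM in siEIF4G2 and 1.69, 1.49 and 1.01 CPM in siNC (log2 fold change -2.61; edgeR adjusted p = 0.00481), and IGFL4 had a log2 fold change of -0.80 (edgeR adjusted p = 0.00959). All 4 of these genes of the region were lower in siEIF4G2.

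PICSAR (ENSG00000275874, chr21:44999208-45004727, minus strand), a long noncoding RNA named for its link to p38 signalling in squamous carcinoma, stood at 42.3 FPKM. It read 25.6, 27.4 and 25.9 CPM in siEIF4G2 and 48.5, 48.8 and 48.3 CPM in siNC and was 1.85-fold lower (log2 fold change -0.88, SE 0.05; edgeR adjusted p = 0.000361). LINC00165 (chr21:44994362-44995185), the adjacent member on the same strand, read 8.55, 10.1 and 8.41 CPM in siEIF4G2 and 15.1, 16.1 and 15.8 CPM in siNC (log2 fold change -0.80; edgeR adjusted p = 0.00267). These neighbours fell by like amounts, and FAM207A, the nearest tested coding gene of both, had a log2 fold change of -0.30 (edgeR adjusted p = 0.0169).

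Other abundant members gave small or uncertain differences. AC018714 (121 FPKM, chr8:127253213-127257630) read 219, 220.3 and 223 CPM in siEIF4G2 and 162, 185 and 167 CPM in siNC (log2 fold change 0.37, SE 0.06; edgeR adjusted p = 0.00533). AL161431, now named LINC03061 (97.3 FPKM, chr13:109269634-109278512), read 532, 541 and 479 CPM in siEIF4G2 and 707, 727 and 588 CPM in siNC (log2 fold change -0.38, SE 0.09; edgeR adjusted p = 0.0247). Its call was lost on leaving out siEIF4G2 replicate 1, siEIF4G2 replicate 3, siNC replicate 1 or siNC replicate 2 (adjusted p from 0.0582 to 0.0776). AC011603, now named TUBA1B-AS1 (57.3 FPKM), overlaps the alpha-tubulin genes TUBA1A and TUBA1B on the opposite strand. It read 360.1, 405 and 372 CPM in siEIF4G2 and 235, 217 and 305 CPM in siNC (log2 fold change 0.59, SE 0.13; edgeR adjusted p = 0.0185), with adjusted p of 0.0535 without siEIF4G2 replicate 2 and 0.0629 without siNC replicate 1. TUBA1B, at 1932 to 2095 CPM in siEIF4G2 and 1476 to 1549 CPM in siNC, had a log2 fold change of 0.39 (edgeR adjusted p = 0.00199), and reads of this member and of the far higher tubulin gene cannot be told apart without strand. AC108052 (62.4 FPKM) had a log2 fold change of 0.12 and did not pass (edgeR adjusted p = 0.118).

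Among members that passed the test and whose groups did not overlap, the 8 largest falls and the 8 largest rises lay between 1.81-fold and 2.72-fold. The falls were AC027682, FRGCA, LINC00963, AC023137, AC007785, SERPINB9P1, SERTAD4-AS1 and LINC02593, with log2 fold changes from -1.44 to -1.15. The rises were AC125807, SUGT1-DT, AL606834, FENDRR, LINC01311, LINC01963, AL513165 and AC091057, with log2 fold changes from 1.42 to 0.86.

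**Figure D2:**
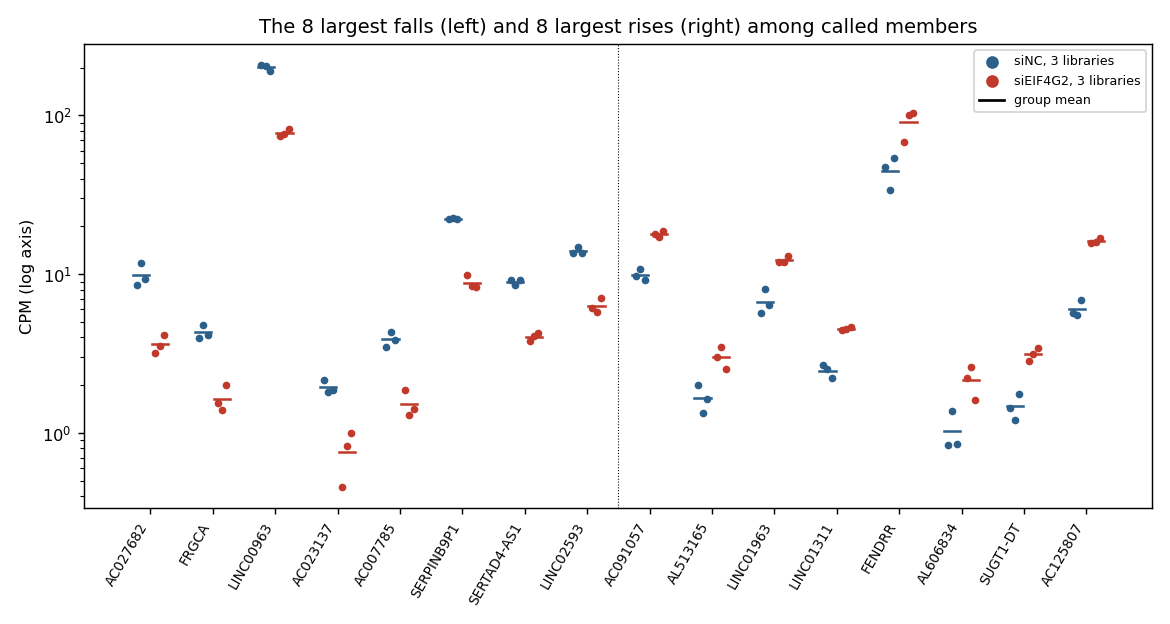
Level in each library (CPM, log axis) for the 8 largest falls, left of the dotted line, and the 8 largest rises, right of it, among members that passed the test. Points are the 3 siNC (blue) and 3 siEIF4G2 (red) libraries and bars their means. In each of the 16 genes the points of the groups do not overlap, which the choice of the genes required, and LINC00963 and FENDRR are the most abundant of them by count.

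Some of those 16 genes have a RefSeq start within 1 kb of the deposited start, and the promoters of their 2 largest rises and 2 largest falls are shown here. The largest called changes, those of AC125807 (log2 fold change 1.42) and AC027682 (-1.44), are not among them. Each promoter is 300 bases of GRCh38.p14 from RefSeq, 250 before the start to 50 after it. All 4 are printed 5′ to 3′ on the strand of the gene, here minus. They lie at chr13:52652258-52652557 for SUGT1-DT, chr16:86508811-86509110 for FENDRR, chr21:43141043-43141342 for FRGCA and chr1:210233836-210234135 for SERTAD4-AS1. Capitals mark matches to motifs searched on both strands.
SUGT1-DT: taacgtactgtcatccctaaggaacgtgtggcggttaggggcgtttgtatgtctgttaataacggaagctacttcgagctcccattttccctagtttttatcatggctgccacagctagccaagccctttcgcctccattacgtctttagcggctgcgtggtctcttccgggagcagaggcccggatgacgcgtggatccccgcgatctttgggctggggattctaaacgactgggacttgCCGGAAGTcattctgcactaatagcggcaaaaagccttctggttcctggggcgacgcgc
FENDRR: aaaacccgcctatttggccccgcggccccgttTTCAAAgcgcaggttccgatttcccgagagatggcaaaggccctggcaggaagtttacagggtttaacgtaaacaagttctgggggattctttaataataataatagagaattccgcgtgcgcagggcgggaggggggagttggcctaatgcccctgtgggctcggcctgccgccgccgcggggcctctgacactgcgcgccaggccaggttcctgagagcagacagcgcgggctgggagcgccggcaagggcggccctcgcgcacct
FRGCA: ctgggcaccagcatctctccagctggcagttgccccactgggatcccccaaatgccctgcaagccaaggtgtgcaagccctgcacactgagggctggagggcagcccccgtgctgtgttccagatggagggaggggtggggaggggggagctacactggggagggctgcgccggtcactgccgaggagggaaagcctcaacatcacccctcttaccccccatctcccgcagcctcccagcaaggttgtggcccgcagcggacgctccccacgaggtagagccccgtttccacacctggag
SERTAD4-AS1: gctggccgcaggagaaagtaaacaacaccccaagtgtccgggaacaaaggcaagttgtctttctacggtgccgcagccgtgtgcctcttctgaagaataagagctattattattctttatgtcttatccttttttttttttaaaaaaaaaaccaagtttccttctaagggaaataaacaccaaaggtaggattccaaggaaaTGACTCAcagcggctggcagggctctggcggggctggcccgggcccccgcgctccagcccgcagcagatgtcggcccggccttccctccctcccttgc
The capitals are an ETS motif (CCGGAAGT) in SUGT1-DT, a cell cycle homology region (TTTGAA, here as its reverse complement) in FENDRR and an AP-1 motif (TGANTCA) in SERTAD4-AS1, and FRGCA has no match to any motif searched. Of all 35116 RefSeq promoters of this length, 4.14% hold the ETS motif, 15.2% the cell cycle homology region and 7.71% the AP-1 motif. Among the 114 members with a RefSeq promoter these shares were 6.14%, 9.65% and 7.89%. The CCAAT box (CCAAT) was found in 40.4% of the members' promoters and 34.6% of all, the E2F forms TTTCCCGC and TTTGGCGC in 3.51% and 1.75% against 1.63% and 0.652%, and the interferon-stimulated response element (GAAA, any 2 bases, GAAA) in 2.63% against 3.57%. The members' promoters were richer in G and C, with a median of 66.7% against 58.7% over all promoters. A match is a string of letters and not a bound site.

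LINC00963 (ENSG00000204054, chr9:129476946-129513687, plus strand, 8.20 FPKM), an RNA studied for its link to tumour cell growth, read 74.6, 76.7 and 82.4 CPM in siEIF4G2 and 208, 206 and 190 CPM in siNC. The groups were far apart relative to their spread, and the fall was 2.58-fold (log2 fold change -1.37, SE 0.06; edgeR adjusted p = 0.000207). It overlaps no tested gene. SERPINB9P1 (chr6:2851230-2881293, minus strand), a transcribed pseudogene of the granzyme B inhibitor SERPINB9, read 9.89, 8.38 and 8.29 CPM in siEIF4G2 and 22.3, 22.6 and 22.2 CPM in siNC (log2 fold change -1.34, SE 0.10; edgeR adjusted p = 0.000481). SERPINB9 itself lies 5977 bp away and had a log2 fold change of -0.72 (edgeR adjusted p = 0.0109), and the resemblance of the pseudogene to its parent makes the split of their reads uncertain.

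AC027682 (chr16:67517862-67528675, minus strand), antisense to RIPOR1, had the largest fall of those 16 genes. It read 3.20, 3.55 and 4.13 CPM in siEIF4G2 and 8.53, 11.8 and 9.28 CPM in siNC (log2 fold change -1.44, SE 0.17; edgeR adjusted p = 0.00203). RIPOR1 gave a log2 fold change of 0.05 (edgeR adjusted p = 0.524). FRGCA, whose promoter is printed above, is a short gene of 570 bp on chromosome 21 that read 1.54, 1.39 and 2.02 CPM in siEIF4G2 and 3.98, 4.76 and 4.17 CPM in siNC (log2 fold change -1.38, SE 0.18; edgeR adjusted p = 0.00296). SERTAD4-AS1, the other fall with a printed promoter, read 3.80, 4.07 and 4.24 CPM in siEIF4G2 and 9.18, 8.58 and 9.21 CPM in siNC (log2 fold change -1.16, SE 0.10; edgeR adjusted p = 0.00075). LINC02593 (chr1:916865-921016) was 2.22-fold lower, from 14 ± 0.783 to 6.32 ± 0.658 CPM (SD, n = 3 libraries each; edgeR adjusted p = 0.0011). AC023137 (chr2:20451042-20452947) lies 1602 bp from RHOB, a small GTPase gene, and read 0.459, 0.826 and 1.0 CPM in siEIF4G2 and 2.17, 1.80 and 1.87 CPM in siNC (log2 fold change -1.36, SE 0.30; edgeR adjusted p = 0.0177). Its call was lost without siNC replicate 1 (adjusted p = 0.0565) and with the replicate number as a block (adjusted p = 0.0527).

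Of the called rises, the largest was that of AC125807 (ENSG00000250899, chr12:3041437-3044950, plus strand), which read 15.8, 16 and 16.8 CPM in siEIF4G2 and 5.74, 5.57 and 6.87 CPM in siNC. The rise was 2.67-fold (log2 fold change 1.42, SE 0.11; edgeR adjusted p = 0.000608). The gene lies 761 bp from TEAD4, a transcription factor of the Hippo pathway, but the starts of the 2 genes are 82107 bp apart. TEAD4 read 44.2, 46.2 and 44.0 CPM in siEIF4G2 and 30.6, 32.0 and 28.9 CPM in siNC (log2 fold change 0.56, SE 0.06; edgeR adjusted p = 0.00166). Both neighbours rose, the noncoding gene by more on the log2 scale, and the difference between the 2 changes was not tested.

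FENDRR (ENSG00000268388, chr16:86474529-86509099, minus strand), an RNA of lateral mesoderm and lung development that lies beside the transcription factor gene FOXF1, read 68.4, 101 and 103 CPM in siEIF4G2 and 47.2, 33.9 and 53.9 CPM in siNC. It was 2.02-fold higher (log2 fold change 1.02, SE 0.23; edgeR adjusted p = 0.0173). Its adjusted p was 0.0549 without siEIF4G2 replicate 3 and 0.0501 without siNC replicate 1. FOXF1, whose interval begins 1428 bp away, read 19.6 to 23.4 CPM in siEIF4G2 and 23.5 to 25.8 CPM in siNC (log2 fold change -0.19; edgeR adjusted p = 0.145). SUGT1-DT, transcribed away from the cochaperone gene SUGT1, read 2.85, 3.17 and 3.41 CPM in siEIF4G2 and 1.44, 1.22 and 1.77 CPM in siNC (log2 fold change 1.09, SE 0.18; edgeR adjusted p = 0.00667), while SUGT1 had a log2 fold change of -0.12 (edgeR adjusted p = 0.115). In both of these divergent arrangements the noncoding RNA rose and the coding neighbour did not pass the test.

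LINC01311 (4.55 ± 0.123 against 2.47 ± 0.227 CPM), LINC01963 (12.3 ± 0.635 against 6.72 ± 1.24 CPM) and AC091057 (18 ± 0.789 against 9.93 ± 0.82 CPM; SD, n = 3 libraries each) were 1.84-fold, 1.82-fold and 1.81-fold higher in siEIF4G2, with edgeR adjusted p of 0.0035, 0.00725 and 0.00165. AC091057 overlaps further genes with its own clone name on the same strand, and ARHGAP11B, its nearest tested coding gene, had a log2 fold change of 0.77 (edgeR adjusted p = 0.027). AL606834 lies inside SAV1 on the same strand, and SAV1 had a log2 fold change of -0.09 (edgeR adjusted p = 0.404). AL513165 lies 593 bp from FBXO10, with starts 67230 bp apart, and FBXO10 fell (log2 fold change -0.42; edgeR adjusted p = 0.00363). The members AL606834 and AL513165 rose by 1.07 and 0.87 on the log2 scale (edgeR adjusted p = 0.0327 and 0.0228). Leaving out any of 4 libraries ended either call, with adjusted p from 0.0818 to 0.0977 for AL606834 (siEIF4G2 replicates 1 and 2, siNC replicates 1 and 3) and from 0.0581 to 0.0659 for AL513165 (siEIF4G2 replicates 1 and 2, siNC replicates 2 and 3).

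Among RNAs known for a role in nuclear architecture and chromatin, 2 were members. MALAT1 (chr11:65497688-65506469, plus strand, 22.3 FPKM), an abundant RNA of nuclear speckles, read 160.1, 105 and 219 CPM in siEIF4G2 and 221, 514 and 201 CPM in siNC. The siNC replicate 2 library stood apart and the groups overlapped, so its log2 fold change of -0.95 had an SE of 0.44 and did not pass (edgeR adjusted p = 0.147). HOTAIR (chr12:53962308-53974956, minus strand, 6.24 FPKM), transcribed from the HOXC cluster and known for binding chromatin modifiers, read 20.5, 21.3 and 21.1 CPM in siEIF4G2 and 19.3, 22.4 and 12.6 CPM in siNC (log2 fold change 0.21, SE 0.20; edgeR adjusted p = 0.471). Over this list, 8 of 13 genes were tested and FIRRE alone passed, while 33.4% of all genes passed. FIRRE, an X-linked RNA that lay below the members in level at 0.996 FPKM, was 2.04-fold higher (edgeR adjusted p = 0.00356). NEAT1, the scaffold of paraspeckles and just below the level required of members, gave 0.46 on the log2 scale with an SE of 0.30 (edgeR adjusted p = 0.284).

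Of the RNAs linked to the cytoplasm or to growth, 6 were members, of which OIP5-AS1 and LINC00963 fell and 4 did not pass. Over the 12 tested genes of the list, members included, 6 fell and 0 rose, beside 17.6% lower and 15.9% higher over all genes. The list was chosen with earlier results of these data known, and its difference from all genes was not tested. OIP5-AS1 (chr15:41283990-41309737, plus strand), the conserved RNA also called Cyrano, read 76.1, 73.6 and 78.5 CPM in siEIF4G2 and 102, 96.9 and 101 CPM in siNC (log2 fold change -0.39, SE 0.05; edgeR adjusted p = 0.00213). OIP5, a centromere factor gene on the other strand, read 27.9, 27.8 and 28.2 CPM in siEIF4G2 and 21.3, 23.9 and 20.9 CPM in siNC (log2 fold change 0.35, SE 0.07; edgeR adjusted p = 0.014). These overlapping genes therefore changed in opposite directions. NORAD (chr20:36045618-36051018, minus strand, 39.4 FPKM), a conserved RNA induced by DNA damage, read 277, 252 and 266 CPM in siEIF4G2 and 242, 251 and 245 CPM in siNC. The groups did not overlap, by a margin within the spread of either group, and the log2 fold change of 0.11 (SE 0.05) did not pass (edgeR adjusted p = 0.138).

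UCA1 (chr19:15828206-15836327, plus strand, 33.2 FPKM), first described in urothelial carcinoma, read 128, 136 and 112 CPM in siEIF4G2 and 142, 215 and 263 CPM in siNC. The groups did not overlap, and with a log2 fold change of -0.72 (SE 0.22) the gene just missed the threshold (edgeR adjusted p = 0.050). Without siNC replicate 1, its lowest siNC library, the log2 fold change was -0.93 (edgeR adjusted p = 0.00882). DANCR (chr4:52712325-52723623, plus strand), an RNA that restrains differentiation of progenitor cells, read 103, 23.2 and 104 CPM in siEIF4G2 and 37.4, 46.7 and 47.9 CPM in siNC. Replicates 1 and 3 of siEIF4G2 lay above all siNC libraries and replicate 2 below them, and the log2 fold change of 0.80 (SE 0.53) did not pass (edgeR adjusted p = 0.294). Without siEIF4G2 replicate 2 it was 1.23 (edgeR adjusted p = 0.00347). CASC19 (2.46 FPKM) had a log2 fold change of 0.17 (edgeR adjusted p = 0.127). PURPL (chr5:27217714-27496994, plus strand, 4.20 FPKM) read 19.4, 26.6 and 21.5 CPM in siEIF4G2 and 35.5, 39.4 and 28.5 CPM in siNC (log2 fold change -0.61, SE 0.16; edgeR adjusted p = 0.0326). The call was lost on leaving out siEIF4G2 replicate 1, siEIF4G2 replicate 3, siNC replicate 1 or siNC replicate 2 (adjusted p from 0.0880 to 0.0925). No member came from the lists of interferon-linked RNAs or structural RNA genes.

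Host genes of microRNAs are transcripts from which the enzyme Drosha cuts the microRNA hairpin. All 5 members that the table names as hosts contain their microRNA. For each host, 1 mature sequence from RefSeq is shown, with let-7a beside them. The 5p products of miR-22, miR-210, miR-193b and miR-1915, which their hosts also carry, are not printed. Capitals mark the seed, bases 2 to 8, which pairs with target messenger RNAs.
hsa-miR-22-3p: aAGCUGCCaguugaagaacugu
hsa-miR-210-3p: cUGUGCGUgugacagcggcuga
hsa-miR-193b-3p: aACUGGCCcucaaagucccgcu
hsa-miR-1915-3p: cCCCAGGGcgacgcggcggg
hsa-miR-4458: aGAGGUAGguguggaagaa
hsa-let-7a-5p: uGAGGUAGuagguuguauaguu
The seeds of the 5 hosts' microRNAs all differ. That of miR-4458, GAGGUAG, is shared by 11 human microRNAs, 8 of them let-7, the family that restrains growth and stem cell genes. Mature microRNAs were not measured, since libraries of poly(A) RNA hold the host transcript and not the short product.

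Of these 5 hosts, MIR1915HG fell, MIR4458HG rose and 3 did not pass, while 33.4% of all genes passed. MIR1915HG (chr10:21492658-21497260, minus strand; typed protein_coding in release 29) read 7.92, 7.33 and 6.44 CPM in siEIF4G2 and 13.2, 12.8 and 13.4 CPM in siNC (log2 fold change -0.86, SE 0.10; edgeR adjusted p = 0.00231). MIR4458HG (chr5:8450701-8486930, plus strand) read 29.8, 28.2 and 30.0 CPM in siEIF4G2 and 24.0, 23.4 and 24.1 CPM in siNC, a small difference with groups apart (log2 fold change 0.30, SE 0.06; edgeR adjusted p = 0.0104). MIR22HG (chr17:1711493-1716251, minus strand), host of a microRNA induced by stress, read 6.66, 6.82 and 12.9 CPM in siEIF4G2 and 15.8, 16.2 and 10.9 CPM in siNC. The third library of each group lay away from the other two and made the groups overlap (log2 fold change -0.70, SE 0.31; edgeR adjusted p = 0.128). Without siEIF4G2 replicate 3 the log2 fold change was -1.08 (edgeR adjusted p = 0.02). MIR210HG, host of the microRNA best known from hypoxia, read 8.11, 5.09 and 7.54 CPM in siEIF4G2 and 9.76, 11.2 and 6.20 CPM in siNC (edgeR adjusted p = 0.319). MIR193BHG read 20.7, 16.2 and 17.6 CPM in siEIF4G2 and 13, 17.4 and 13.1 CPM in siNC (edgeR adjusted p = 0.163). AC020916, whose current name MIR23AHG marks it as a sixth host, had a log2 fold change of -0.23 and did not pass (edgeR adjusted p = 0.103). Of the 5 genes of the microprocessor list, DROSHA and its partner DGCR8 rose by 0.39 and 0.20 on the log2 scale (edgeR adjusted p = 0.00444 and 0.0302). The other 3 did not pass, and over all genes 33.4% passed.

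Proteins that bind or degrade long noncoding RNAs were counted from lists of known members. Those lists were chosen with earlier results of these data known, and their differences from all genes were not tested. Of 20 paraspeckle proteins, all tested, 9 rose, 1 fell and 10 did not pass, with a median log2 fold change of 0.18, beside 15.9% higher and 17.6% lower over all genes. HNRNPH3 rose by 0.65, DAZAP1 by 0.49, SFPQ by 0.28 and NONO by 0.24 on the log2 scale (edgeR adjusted p = 0.000407, 0.00196, 0.00493 and 0.0361), and AHDC1 fell by 0.33 (edgeR adjusted p = 0.0327). Of 19 genes of nuclear RNA decay, 5 rose and 2 fell, with a median of 0.24, so the share that passed was near the 33.4% of all genes. RBM7, a subunit of the exosome targeting complex that also stands on the paraspeckle list, rose by 0.67 and MTREX, the helicase of the nuclear exosome, by 0.28, both on the log2 scale. The exosome subunits EXOSC2, EXOSC5 and EXOSC8 rose by 0.34, 0.42 and 0.41 on that scale (edgeR adjusted p = 0.00306, 0.0494 and 0.00902), while EXOSC1 and EXOSC4 fell by 0.43 and 0.24. Of 14 subunits of Integrator, which ends transcription of many noncoding RNAs, INTS1 rose and 13 did not pass. The share that passed was lower than the 33.4% of all genes.

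Many members sit against a coding gene, and each was set beside the nearest tested one. For 96 members the coding gene overlaps on the opposite strand, and 27 of these members and 43 of the coding genes passed. Over all genes 33.4% passed, and over protein-coding genes 36.7%. Both genes passed in 17 of these pairs, 12 with both lower, 1 with both higher and 4 in opposite directions. For 70 members the coding gene lies apart within 5 kb, where 20 members and 23 coding genes passed, and both in 7 pairs, 5 in the same direction and 2 in opposite directions. For 93 the gene lies farther than 5 kb, where 36 members and 37 coding genes passed, and both in 16 pairs, 12 in the same direction. Joint calls were thus about as frequent beyond 5 kb as with overlap on the opposite strand. The number of joint calls to be met without any link between the genes was not worked out. Across pairs the Pearson correlation of log2 fold changes was 0.28 for overlap on the opposite strand, 0.25 within 5 kb, 0.20 beyond 5 kb and -0.18 for the 26 pairs that overlap on the same strand. These values describe pairs measured in the same 6 libraries, which are not independent, and the part of reads shared between overlapping genes was not tested. Without siNC replicate 1, 11 pairs overlapping on the opposite strand were called, 8 in the same direction, and leaving out any other library left 12 to 16. Within 5 kb, 3 pairs were left without siEIF4G2 replicate 1, siNC replicate 2 or siNC replicate 3, 4 without siEIF4G2 replicate 3 or siNC replicate 1, and 6 without siEIF4G2 replicate 2. Beyond 5 kb, 5 pairs were left without siEIF4G2 replicate 1, 7 without siEIF4G2 replicate 3 or siNC replicate 2, 9 without siNC replicate 1 or siNC replicate 3, and 12 without siEIF4G2 replicate 2.

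**Figure D3:**
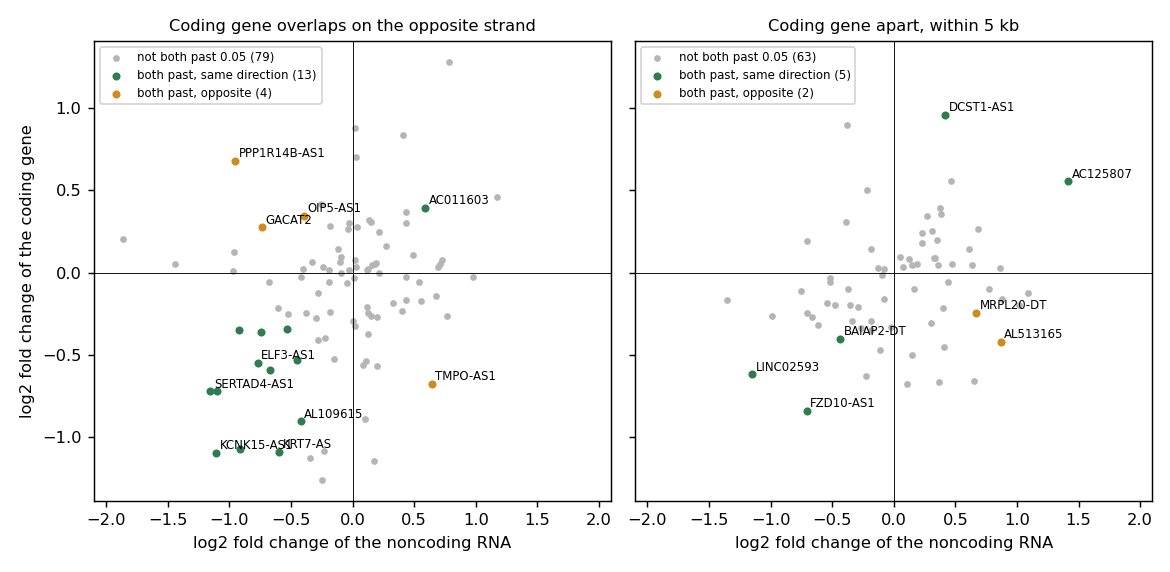
Log2 fold change (siEIF4G2 over siNC, edgeR) of each long noncoding RNA against that of its nearest tested coding gene, for genes overlapping on the opposite strand (left, 96 pairs) and lying apart within 5 kb (right, 70 pairs). Green marks pairs with both genes past 0.05 in the same direction (13 and 5), orange those in opposite directions (4 and 2), and most green points on the left lie in the lower left corner.

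Among the pairs that fell together, KRT7-AS (chr12:52245048-52247448) lies against the keratin gene KRT7. The antisense RNA read 7.13, 7.25 and 7.44 CPM in siEIF4G2 and 9.81, 12.3 and 10.9 CPM in siNC (log2 fold change -0.59, SE 0.11; edgeR adjusted p = 0.0095), and KRT7, at 374 to 435 CPM against 775 to 918 CPM, had a log2 fold change of -1.09 (edgeR adjusted p = 0.000682). KCNK15-AS1 (chr20:44694892-44746021) read 1.97, 2.58 and 2.16 CPM in siEIF4G2 and 4.92, 4.79 and 4.78 CPM in siNC (log2 fold change -1.11; edgeR adjusted p = 0.00257), and the potassium channel gene KCNK15 had a log2 fold change of -1.09 (edgeR adjusted p = 0.00284). ELF3-AS1 (chr1:201995696-202010463) and the epithelial transcription factor gene ELF3 gave -0.77 and -0.55 on the log2 scale (edgeR adjusted p = 0.000738 and 0.00158), and SERTAD4-AS1 and SERTAD4 gave -1.16 and -0.72 (edgeR adjusted p = 0.00075 and 0.00664). PDCD4-AS1 (chr10:110869868-110872233) and PDCD4, a gene for an inhibitor of translation initiation, gave -0.67 and -0.59 (edgeR adjusted p = 0.0065 and 0.000895). FZD10-AS1 (chr12:130144315-130162256) does not overlap its neighbour, the Wnt receptor gene FZD10, which lies 203 bp away. It read 26.8, 27.4 and 24.4 CPM in siEIF4G2 and 42.9, 43.3 and 42.1 CPM in siNC (log2 fold change -0.71, SE 0.06; edgeR adjusted p = 0.000912), and FZD10 had a log2 fold change of -0.84 (edgeR adjusted p = 0.00174).

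The 4 overlapping pairs with opposite changes were OIP5-AS1 with OIP5, given above, PPP1R14B-AS1 with PPP1R14B, GACAT2 with MTCL1 and TMPO-AS1 with TMPO. PPP1R14B-AS1 (chr11:64245961-64248217) read 3.78, 4.33 and 4.38 CPM in siEIF4G2 and 7.69, 8.67 and 7.82 CPM in siNC (log2 fold change -0.95, SE 0.11; edgeR adjusted p = 0.00204), while PPP1R14B, a phosphatase inhibitor gene, rose and read 231 to 255 CPM in siEIF4G2 and 144 to 157 CPM in siNC (log2 fold change 0.68; edgeR adjusted p = 0.000723). TMPO-AS1 (chr12:98512973-98516422) read 13.1, 12.8 and 12.9 CPM in siEIF4G2 and 7.87, 8.41 and 8.65 CPM in siNC (log2 fold change 0.64, SE 0.08; edgeR adjusted p = 0.00285). TMPO, which encodes lamina-associated polypeptides of the nuclear envelope, went the other way, with 111 to 120.2 CPM in siEIF4G2 and 178 to 189 CPM in siNC (log2 fold change -0.68; edgeR adjusted p = 0.000483). GACAT2 (chr18:8695856-8707621) fell by 0.73 on the log2 scale (edgeR adjusted p = 0.00677) while the microtubule regulator gene MTCL1 rose by 0.28 (edgeR adjusted p = 0.00398). Each of these 4 members kept its call when any 1 library was left out, but not every one of their coding genes did. Without siNC replicate 1, only 3 pairs overlapping on the opposite strand were called in opposite directions. Leaving out any other library gave 4 or 5 such pairs.

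Some members varied far more between libraries of a group than the rest. Their median coefficient of variation in siNC was 11.2%, beside 7.23% over all genes tested and 5.43% over protein-coding genes at or above the lowest member's level. In 18 of 285 (6.32%) the highest library exceeded the lowest of its own group more than 3-fold, or the lowest was at 0, beside 5.32% of all genes and 2.34% of those protein-coding genes. None of these 18 passed the edgeR test, beside 16 of the 732 genes with such spread over all genes tested. Of the 18, 12 overlap another gene at the level required for testing, beside 155 of all 285 tested members. AC023509 (17.7 FPKM), which overlaps PCBP2 and PRR13 on the same strand, read 0, 60.5 and 18 CPM in siEIF4G2 and 86.8, 26.7 and 9.95 CPM in siNC. A count of 0 allows up to 0.0405 CPM in that library, for counting error only, and the other libraries of the group lay far above that limit. AC009133, antisense to MAZ, MVP and PAGR1, read 46.0, 0.749 and 0.829 CPM in siEIF4G2 and 18.9, 21.7 and 1.70 CPM in siNC. AC004967 read 1.20, 12.3 and 1.31 CPM in siEIF4G2 and 15.5, 15.1 and 17.5 CPM in siNC. Its groups did not overlap and its log2 fold change was -1.70, yet with an SE of 0.92 it did not pass (edgeR adjusted p = 0.203). LINC00205, which overlaps no tested gene, read 13.3, 22.4 and 27.8 CPM in siEIF4G2 and 34.5, 34.8 and 6.94 CPM in siNC. The library that stood apart differed from gene to gene, and correlations of log2 CPM over the members were 0.866 to 0.965 within groups and 0.834 to 0.927 between them.

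**Figure D4:**
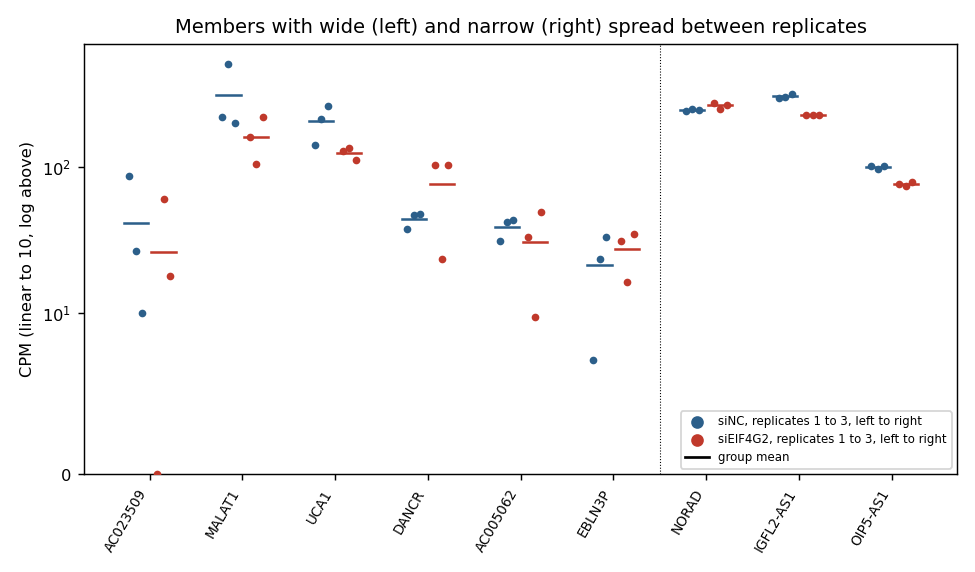
Level in each library (CPM, linear up to 10 and logarithmic above) of 6 members with wider spread (left of the dotted line) and 3 with narrow spread (right of it), chosen after their values were seen. MALAT1 and UCA1 are not among the 18 members with more than 3-fold spread, since their groups spanned at most 2.56-fold and 1.85-fold. Blue points are siNC and red points siEIF4G2 replicates 1 to 3 from left to right, and bars are group means. NORAD, IGFL2-AS1 and OIP5-AS1 lie in tight groups, while AC023509 runs from 0 to 86.8 CPM and MALAT1 has a single high siNC library at 514 CPM.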

How the data were processed

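The authors deposited a single table with, for each gene and library, a count and an FPKM value. Per the file headers the units are count and FPKM. The deposited counts are whole numbers that behave as rounded estimated counts, so they were used as already rounded, and this departs from the raw counts that the design had assumed. Per the submitters' processing notes, HISAT2 2.0 and StringTie 1.3.0 were used. The build, annotation and strand setting were not given in the sources used here. Coordinates are given as GRCh38, since all 285 members found in GENCODE release 29 overlapped their entry there.

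Groups and replicate numbers came from the sample titles. For each symbol the gene with the highest mean FPKM was kept, and the 13748 genes that reached 0.5 FPKM in 3 or more libraries were tested. The test was edgeR 4.0.16 (R 4.3.3) quasi-likelihood with TMM factors (0.985 to 1.02), two-sided, group only, with Benjamini-Hochberg adjustment over all tested genes and a threshold of 0.05. CPM values use the TMM-scaled library sizes. SE is the log2 fold change over the square root of F. The edgeR step was tested on simulated data. Depth is given as total counts, and limits for a count of 0 (3 counts) cover counting error only, as no molecular identifiers were used.

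Members named are the 15 highest by mean FPKM, the 8 largest rises and 8 largest falls among called members with groups that did not overlap, and all members on the role lists. Members of gene pairs and of the wide spread were chosen after their values were seen. Some listed genes are not reported here. The members and lists were chosen with earlier results of these data known. Alternatives used DESeq2 1.42.0 (size factors, Wald test), limma 3.58.1 on log2(FPKM + 1) and log2(FPKM + 0.1), upper-quartile factors, other filters, summed or separate symbols, a replicate block and leaving out each library. Tables and plots used pandas 2.3.3, numpy 2.4.6 and matplotlib 3.10.9 under Python 3.11.15. RefSeq tables of GRCh38.p14 gave a promoter for 114 members, 98 with a start within 1 kb of the table's, and the mature microRNAs.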

Additional observations from a re-analysis of the deposited data

How the results depend on the processing

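The count of members called higher in siEIF4G2 was 38 with all libraries and 24 with the replicate block, and the count called lower was 51 and 44. Leaving out 1 library gave 25 to 31 higher, 35 to 48 lower and a median log2 fold change from -0.00235 to 0.0889, where the fits have fewer libraries. Of tested members overlapping no other gene at the level required for testing (130), 21 were higher and 24 lower, with a median of 0.10, a smaller set by construction. Under the other scalings, tools, filters, symbol rules and level limits, 29 to 48 were higher and 37 to 57 lower, and all 89 called members kept their sign under both other scalings. Taking each gene identifier on its own was added after seeing the data and gave 38 and 51. Same-numbered libraries showed correlations of 0.00, 0.03 and 0.05 in their deviations from the group means, so the numbers were not taken to pair them. The replicate block left 37 of 39 named members on the same side of the threshold and ended the calls of AL513165 (adjusted p = 0.0635) and AC023137 (0.0527). EIF4G2 gave -2.43 with the block (edgeR adjusted p = 0.00655). No named member reversed under the alternatives run. With no filter on low values PURPL and AL606834 missed the threshold (edgeR adjusted p = 0.0549 and 0.057). UCA1 passed with the size factors of DESeq2 (0.0497), with the Wald test of DESeq2 (0.00396) and at 1 FPKM or more in every library (0.0444).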
